A study of Rattus norvegicus with 55 samples.

Results

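Expression of 10 genes of mitosis was followed across rat kidneys of 3 life stages: Top2a, Cdk1, Cdc20, Ccnb1, Bub1b, Plk1, Kif11, Smc4, Hmmr and Stmn1. Their members are the 14 probe sets whose only annotated gene is 1 of these 10 genes, out of 8799 probe sets on the array, and the rule uses no measured value, although the genes were proposed with earlier results of these data known. Top2a has 3 probe sets, Ccnb1 and Bub1b have 2 each, and the other 7 genes have 1 each. Of the 14 probe sets 12 were bright enough on average to be tested. The dim probe sets rc_AA998164_s_at of Ccnb1 and D14045_s_at of Top2a stood below that limit and are given by their values, with tests only where it is stated that no limit was applied.

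Total RNA of kidney was hybridised to 55 1-colour Affymetrix arrays, 1 per sample. All samples are titled as kidney of SHR, the usual abbreviation for the spontaneously hypertensive rat, and all are described as Wistar-derived. The descriptions separate 13 immature, 14 young and 14 mature samples, and 14 more have no word for stage and are called unstaged here. No age, sex, treatment or blood pressure stands in the labels, and the labels do not state that samples of a group came from different animals. P-values here cover only the scatter from sample to sample, part of which may be technical, and precision is limited by the number of arrays. Values are deposited intensities on a linear scale.

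The arrays are not uniform, and the differences touch the results below. Their bacterial and other control probe sets divided them into 3 batches, a division made from the data and not given by the labels. In batch 1 were 6 immature with 4 mature arrays. In batch 2 were 7 immature, 6 young and 6 unstaged arrays. In batch 3 were 8 young, 8 unstaged and 10 mature arrays. The signal of a probe set shared by 18S ribosomal RNA was above 4000 on 9 arrays (4873.8 to 20470.5), namely the whole immature group of batch 2 (7 arrays), 1 young and 1 unstaged array, and at most 1797.8 on the others. The GAPDH 3'/5' ratio, which rises when RNA is degraded, was above 3 on mature replicates 1 and 9. On 12 arrays, 3 of each description, the probe set X56596_at of the class II histocompatibility gene RT1-Bb read 1411.5 to 2381.2, and on the other 43 it read 80.1 to 263.0.

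Mitosis is the part of the cell cycle in which duplicated chromosomes are condensed, attached to a spindle and pulled apart. The kinase Cdk1 bound to cyclin B, encoded by Ccnb1, drives entry, with Plk1 as a further mitotic kinase. BubR1, encoded by Bub1b, holds cells until every chromosome is attached, and Cdc20 activates the ubiquitin ligase that then ends mitosis. Kif11, Hmmr and Stmn1 act on spindle microtubules, and Top2a and Smc4 act on the chromosomes. The transcripts of most of these genes are abundant in dividing cells and scarce in resting ones. Kidney cells of young animals divide as nephrons grow, and most cells of the mature kidney are at rest.

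Genes of this kind are known to be held silent in resting cells through the CHR, a short promoter element, often with CCAAT boxes beside it, so their start regions were read first. RefSeq promoter windows of assembly GRCr8 (250 bases before to 50 bases after 1 annotated start of each gene) were matched by symbol for all 10 genes. The outermost annotated start lies further upstream for Kif11 (41951 bases), Stmn1 (871), Hmmr (174), Bub1b (48) and Cdk1 (41), and it was not searched separately. Both strands were searched for the CHR (TTTGAA or TTCGAA), for CCAAT and for the E2F motifs TTTCGCGC, TTTGGCGC and TTTCCCGC. CHR letters stood in the windows of 7 of the 10 genes, against 19.7% of 33469 windows of the same length. They were Plk1, Smc4, Bub1b, Cdc20, Hmmr, Top2a and Cdk1. CCAAT stood in 9 of 10, against 37.5%. Both stood in 6 of 10, against 8.0%, namely in Plk1, Smc4, Cdc20, Hmmr, Top2a and Cdk1. At least 2 CCAAT boxes were found in Ccnb1, Cdc20, Hmmr, Top2a and Cdk1, which is 5 of 10 against 11.2%. An E2F motif was found in 2 of 10, Stmn1 and Cdk1, against 1.7%. A match is a description of letters and not a measured binding site. The stretches just upstream of the start are shown for 4 genes called lower in mature than in immature kidney over all arrays. Of these, Smc4 lost that call with the batches taken into account. Stretches are also shown for 2 genes whose brightest probe set was not called. Each runs 5' to 3' on the gene's strand with CHR, CCAAT and E2F letters of either strand in capitals (TTCAAA and ATTGG are the opposite-strand forms).
Top2a: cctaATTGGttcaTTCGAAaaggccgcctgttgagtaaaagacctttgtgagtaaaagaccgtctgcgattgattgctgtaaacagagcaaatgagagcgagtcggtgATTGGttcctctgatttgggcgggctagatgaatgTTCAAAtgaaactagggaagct
Cdk1: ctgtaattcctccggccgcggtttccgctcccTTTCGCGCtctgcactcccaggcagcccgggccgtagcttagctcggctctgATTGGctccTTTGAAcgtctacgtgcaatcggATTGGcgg
Cdc20: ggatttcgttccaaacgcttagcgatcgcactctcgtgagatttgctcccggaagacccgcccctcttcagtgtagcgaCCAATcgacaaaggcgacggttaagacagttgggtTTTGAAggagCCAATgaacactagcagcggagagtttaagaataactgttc
Smc4: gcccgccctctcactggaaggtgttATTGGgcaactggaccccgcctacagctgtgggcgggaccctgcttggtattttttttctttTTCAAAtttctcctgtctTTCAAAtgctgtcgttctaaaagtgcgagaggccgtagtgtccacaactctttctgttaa
Ccnb1: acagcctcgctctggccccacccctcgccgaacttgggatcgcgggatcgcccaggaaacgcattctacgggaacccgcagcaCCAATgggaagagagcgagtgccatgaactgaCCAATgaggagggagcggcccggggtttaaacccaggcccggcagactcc
Plk1: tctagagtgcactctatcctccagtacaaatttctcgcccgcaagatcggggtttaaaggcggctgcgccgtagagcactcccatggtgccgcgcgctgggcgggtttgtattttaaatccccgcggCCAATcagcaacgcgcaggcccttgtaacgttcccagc
The Top2a stretch lies at chr10:84473094-84473258 on the minus strand, Cdc20 at chr5:137255800-137255964 (minus), Ccnb1 at chr2:33655226-33655390 (minus), Smc4 at chr2:155550097-155550261 (plus) and Plk1 at chr1:186147493-186147657 (plus), each from -165 to -1. The Cdk1 stretch, chr20:19265128-19265251 (plus), ends at -42 because another RefSeq model of the gene starts just after that base. The Cdc20 stretch holds CCAAT at -86 and -41 and a CHR at -51. The Top2a stretch holds CHR letters at -152 and -22. Plk1 has its CHR letters at 7 to 12 after the start and so outside the stretch shown, and Ccnb1 has 2 CCAAT boxes and none of the CHR letters searched. Of the genes not shown, Bub1b has CHR letters at -225 and -4 but was called by neither probe set over all arrays. Stmn1 was called lower in mature than in immature kidney without CHR letters. Hmmr has CHR letters and was called lower, and Kif11 has none and was not called. Whether the letters go with the fall was not tested.

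Several mitosis genes, Top2a, Cdk1 and Cdc20 among them, had lower signal in mature than in immature kidneys. Of the 12 tested probe sets 6 differed among the 4 groups, against 28.5% of all probe sets (moderated F test of limma). In mature against immature kidney the same 6 were lower and 0 of 12 higher at an adjusted p under 0.05 in limma, with Benjamini-Hochberg adjustment over all 6555 tested probe sets, where 14.1% of all probe sets were called lower and 24.4% called in either direction. The 6 were the main probe sets of Top2a, Cdk1, Hmmr, Smc4, Cdc20 and Stmn1. Median change over the 12 was -0.48 on the log2 scale, against 0.04 over all probe sets. These and all other changes are on the scale of log2(intensity + 15.82), which understates the change of dim probe sets. Whether fewer dividing cells or less RNA per cell lies behind a lower level cannot be told apart in bulk kidney.

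The step from young to mature or unstaged kidney singled out few probe sets on the array, and mitosis genes were among them. In mature against young kidney 5 of 12 were lower and 0 higher, against 1.19% of all probe sets called lower and 1.8% either way. In unstaged against young kidney 4 of 12 were lower, against 0.168% lower and 0.229% either way, and these 4 were among only 15 probe sets called in all. Top2a rc_AA899854_at ranked 1 of 6555 by p in both comparisons. The count of 15 holds only for the arrays pooled over batches. Unstaged against young kidney called 27.1% of all probe sets inside batch 2 and 0.0% inside batch 3. In young against immature kidney only Top2a rc_AA899854_at was called (1 of 12), against 9.21% of all probe sets called lower and 18.7% either way, a share near the background. That call was lost without the 9 arrays of high 18S signal (-0.24). Array weights gave 5 of 12, against 44.3% of all probe sets, with Top2a rc_AA899854_at, Hmmr, Stmn1 and Cdk1 lower and Top2a Z19552cds_at higher. Inside batch 2 there were 3 of 12, against 29.3%, with Top2a rc_AA899854_at and Cdk1 lower and Top2a Z19552cds_at higher. In unstaged against immature kidney 6 of 12 were lower, against 14.4% lower and 27.0% either way. Without the 9 arrays of high 18S signal 15.1% of all probe sets were called in that comparison. Top2a rc_AA899854_at (-1.02), Cdk1 (-0.96) and Cdc20 (-0.51) were then still called lower. Smc4 (-0.39), Stmn1 (-0.11) and Hmmr (-0.10) were not, and Bub1b U83666_at (-0.76) was called lower. Between mature and unstaged kidney limma called 0 of 12, against 0.412% of all probe sets. At an unadjusted p under 0.05 there were 2 of 12, against 13.2% of all probe sets, a share near the background. Comparisons with a group in common share its arrays and are not independent.

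**Figure D1:**
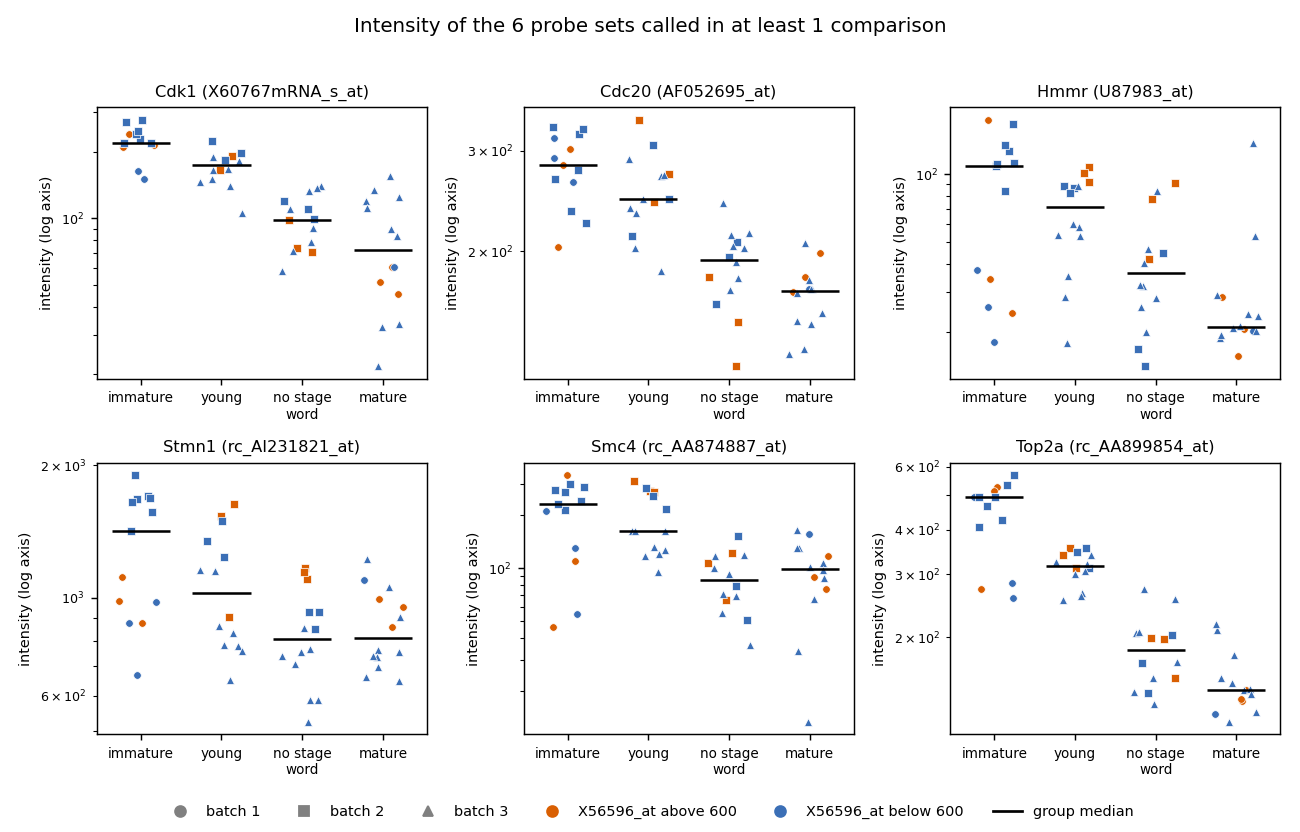
Deposited intensity (log axis) of the 6 probe sets called in at least 1 comparison, 1 point per array, by description; the order of the groups follows the labels' stage words with the unstaged group placed between young and mature. Symbols give the batch, colours the RT1-Bb probe set X56596_at above or below 600, and bars the group median. Within each batch the medians of Cdk1, Cdc20 and Top2a are lower in mature and unstaged than in immature and young kidney, whereas Stmn1, Smc4 and Hmmr also differ between batches of the same description.

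Among the genes of mitotic entry, Cdk1 (X60767mRNA_s_at) was high in immature kidney, at 149.8 to 278.3 with a median of 219.5. Young kidneys read 105.5 to 224.1 (median 174.25), unstaged kidneys 58.0 to 140.4 (median 98.65) and mature kidneys 21.6 to 155.9 (median 72.2). All 14 unstaged arrays and 13 of 14 mature arrays lay below the lowest immature array. Groups with no overlap at all were found for 1.22% of all probe sets between unstaged and immature kidney. Cdk1 changed by -1.44 ± 0.16 (SE) between mature and immature kidney, 2.71-fold lower (limma, adjusted p = 7.6e-10, n = 14 and 13). From young kidney it was 2.12-fold lower in mature (-1.08 ± 0.16, adjusted p = 7.3e-06) and 1.64-fold lower in unstaged kidney (-0.71 ± 0.16, adjusted p = 0.024). The neighbours immature and young (-0.36, adjusted p = 0.12) and unstaged and mature (-0.37, adjusted p = 0.31) did not differ past the threshold.

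Ccnb1, the cyclin partner of Cdk1, gave different pictures in its 2 probe sets. The bright X64589_at had medians of 318.5, 321.5, 270.85 and 257.05 in immature, young, unstaged and mature kidney, with wide overlap, and was called in none of the 6 comparisons (mature against immature -0.04, adjusted p = 0.86). The dim rc_AA998164_s_at had medians of 72.1, 68.8, 21.9 and 8.55, and its mature arrays (2.2 to 40.6) lay below the lowest of its immature ones (28.3 to 119.3) in 10 of 14 cases. Its immature and mature medians in batch 1 were 50.7 and 5.95. In a fit with no limit on brightness that probe set changed by -1.55 ± 0.20 between mature and immature kidney (limma, adjusted p = 2.4e-08) and by -1.44 between mature and young (adjusted p = 8.8e-07). It was also lower in unstaged against young kidney (-0.95, adjusted p = 0.015). Over the 55 arrays the log2 values of the pair correlated at r = 0.27, which holds differences between groups and batches as well.

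Plk1 (U10188_at), the kinase of several mitotic steps, spread widely within each group. Its medians were 490.4 in immature, 346.9 in young, 410.25 in unstaged and 358.7 in mature kidney, and the mature arrays ran from 199.0 to 1119.5. It changed by -0.23 ± 0.20 between mature and immature kidney (adjusted p = 0.41) and was called in no comparison over all arrays.

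At the spindle checkpoint and its release, Cdc20 (AF052695_at) moved with little spread. It read 203.1 to 329.6 (median 282.5) in immature, 184.6 to 339.8 (median 246.9) in young, 125.6 to 242.7 (median 193.25) in unstaged and 132.3 to 207.0 (median 170.4) in mature kidney. Of the mature arrays 13 of 14 lay below every immature array and 12 of 14 below every young array. Cdc20 was 1.61-fold lower in mature than in immature kidney (-0.69 ± 0.09, limma, adjusted p = 2.9e-08) and 1.47-fold lower than in young (-0.56 ± 0.09, adjusted p = 2.2e-05). In unstaged against young kidney it was 1.32-fold lower (-0.40 ± 0.09, adjusted p = 0.019).

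Bub1b, the checkpoint kinase gene upstream of Cdc20, was called by neither probe set over all arrays. U83666_at had its highest median in mature kidney (133.35, against 83.6 in immature, 72.65 in young and 79.8 in unstaged), with a change of 0.46 between mature and immature kidney (adjusted p = 0.16). The other, rc_H31604_at, went the opposite way, from a median of 64.2 in immature to 37.1 in mature kidney (-0.41, adjusted p = 0.11). Their log2 values correlated at r = -0.12 over the 55 arrays, so the gene had no single pattern here. Other settings gave calls in both directions. In mature against immature kidney rc_H31604_at was called without the arrays of high GAPDH ratio (-0.57 ± 0.18, limma, adjusted p = 0.013), against 24.9% of all probe sets. With array weights, which count less consistent arrays less, rc_H31604_at was called lower (-0.57) and U83666_at higher (0.50) in that comparison, against 56.3% of all probe sets. U83666_at in unstaged against immature kidney was called higher with array weights (0.47, against 58.4%) and lower without the 9 arrays of high 18S signal (-0.76, against 15.1%). Without those 9 arrays it was also lower in young than in immature kidney (-0.85, against 18.0%). Inside batch 2 rc_H31604_at was lower in unstaged than in immature kidney (-0.31, against 43.4%).

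Of the spindle genes, Hmmr (U87983_at), a microtubule-binding protein first known as a hyaluronan receptor, was dim and variable. It read 18.0 to 174.0 (median 108.7) in immature, 17.9 to 107.2 (median 71.15) in young, 14.1 to 91.0 (median 36.45) in unstaged and 15.7 to 137.1 (median 21.0) in mature kidney. It was 2.05-fold lower in mature than in immature kidney (-1.04 ± 0.25, limma, adjusted p = 0.0015) and 1.82-fold lower than in young (-0.86 ± 0.24, adjusted p = 0.0497). That last call was lost on leaving out any of 38 of the 55 arrays in turn. Hmmr in unstaged against immature kidney (-0.72, adjusted p = 0.026) was lost without immature replicate 3 or 8, with changes of -0.63 and -0.64.

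Stmn1 (rc_AI231821_at), stathmin, a protein that takes microtubules apart, had medians of 1418.1, 1025.85, 808.3 and 810.95 in immature, young, unstaged and mature kidney. The ranges overlapped, from 668.1 to 1898.4 in immature and from 647.2 to 1224.7 in mature kidney. Its fall between mature and immature kidney was 1.47-fold (-0.55 ± 0.15, limma, adjusted p = 0.0052), and it was not called against young kidney. Kif11 (AF035955_at), the motor that separates spindle poles, was dim in every group, with medians of 40.8, 53.5, 58.6 and 52.5. It changed by 0.29 ± 0.21 between mature and immature kidney (adjusted p = 0.32) and was called nowhere over all arrays.

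On the chromosomes, Top2a (rc_AA899854_at), the topoisomerase that untangles sister DNA strands, had the smallest adjusted p of the members in mature against immature kidney. It read 256.9 to 569.1 (median 493.6) in immature, 253.8 to 356.6 (median 316.9) in young, 129.9 to 272.3 (median 183.75) in unstaged and 115.6 to 217.6 (median 142.3) in mature kidney. All 14 mature arrays lay below every immature and every young array. Groups without overlap were found for 0.519% of all probe sets between mature and immature and for 0.061% between mature and young kidney. The change from immature was -1.44 ± 0.11 in mature kidney, 2.72-fold (limma, adjusted p = 2.6e-15), and -0.44 ± 0.11 in young kidney, 1.35-fold (adjusted p = 0.0046). From young kidney it was 2.01-fold lower in mature (-1.005 ± 0.11, adjusted p = 8.1e-09) and 1.67-fold lower in unstaged kidney (-0.74 ± 0.11, adjusted p = 8.2e-05). Mature and unstaged kidney did not differ past the threshold (-0.27, adjusted p = 0.28).

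The other probe sets of Top2a did not share that pattern in full. Z19552cds_at had medians of 134.2, 178.25, 116.1 and 151.65 in immature, young, unstaged and mature kidney and changed by 0.12 between mature and immature kidney (adjusted p = 0.61). Inside batch 2 it was called higher in young than in immature kidney (0.46 ± 0.10, limma, adjusted p = 0.00249), where rc_AA899854_at was called lower (-0.50). The dim D14045_s_at had medians of 61.1, 55.1, 23.85 and 27.9, and with no limit on brightness it was lower in mature than in immature kidney (-0.625, limma, adjusted p = 0.020). Its immature median was 27.0 in batch 1, beside a mature median of 25.8 there, and 80.3 in batch 2, whose immature arrays are those of high 18S signal. Over the 55 arrays rc_AA899854_at correlated with D14045_s_at at r = 0.52 and with Z19552cds_at at r = 0.09.

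Smc4 (rc_AA874887_at), a core subunit of condensin, had medians of 231.7 and 162.85 in immature and young kidney and of 85.6 and 99.4 in unstaged and mature kidney. Single arrays reached 46.2 in the immature and 13.3 in the mature group, so the ranges overlapped widely. It was 1.92-fold lower in mature than in immature kidney (-0.94 ± 0.24, limma, adjusted p = 0.0029) and 1.89-fold lower than in young (-0.92 ± 0.24, adjusted p = 0.030). The call against young kidney was lost on leaving out any of 8 single arrays, young replicates 1, 2, 3, 4, 13 and 14 and mature replicates 1 and 9. In unstaged against young kidney it was 1.98-fold lower (-0.98 ± 0.24, adjusted p = 0.047), a call that was lost on leaving out any of 26 of the 55 arrays in turn. Without the 2 arrays of high GAPDH ratio the fall in mature against young kidney did not pass (adjusted p = 0.16).

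**Figure D2:**
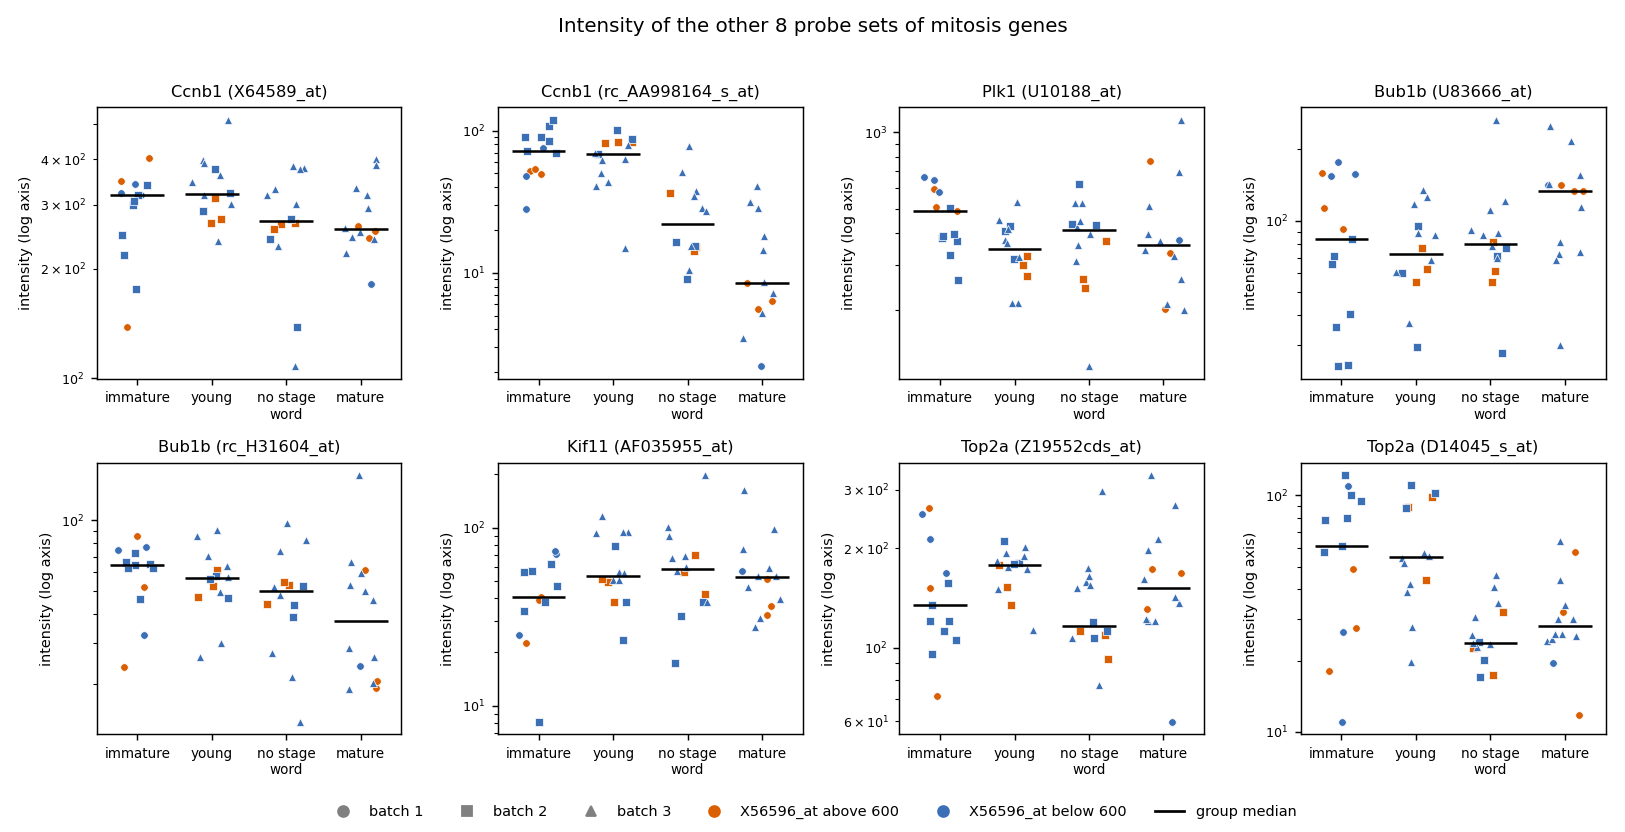
Deposited intensity (log axis) of the other 8 probe sets, 1 point per array, in the same layout, symbols and colours. The 2 probe sets of Ccnb1 differ, with the dim one falling to a median of 8.55 in mature kidney, and Plk1, Kif11 and both Bub1b probe sets overlap between all groups.

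Across the 6 called probe sets the order of the group medians was immature, young, unstaged, mature for Cdk1, Cdc20, Hmmr and Top2a rc_AA899854_at. For Stmn1 and Smc4 the unstaged median was the lowest. Between mature and unstaged kidney Top2a (-0.27) and Cdk1 (-0.37) were lower at an unadjusted p under 0.05 without passing the adjusted threshold, which does not show that the levels were the same.

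The fall of Top2a, Cdk1 and Cdc20 was about as large with the batches taken into account. With batch as a block, mature against immature kidney gave 4 of 12 lower, against 12.6% of all probe sets called: Top2a rc_AA899854_at (-1.45), Cdk1 (-1.46), Cdc20 (-0.69) and Hmmr (-0.83). Inside batch 1, with 4 mature and 6 immature arrays, Cdk1 (-1.60 ± 0.17, limma, adjusted p = 0.0010) and Top2a (-1.39 ± 0.24, adjusted p = 0.023) were called, 2 of 12 against 0.717% of all probe sets, while Cdc20 was at -0.57 without a call. There all 4 mature arrays read 45.6 to 60.8 for Cdk1 against 149.8 to 240.6 in the 6 immature arrays, with no overlap. In mature against young kidney the block kept Top2a (-0.91), Cdk1 (-0.96) and Cdc20 (-0.57), 3 of 12 against 1.31%, and inside batch 3 Top2a (-0.87) and Cdc20 (-0.53) were called, 2 of 12 against 0.442%. Cdk1 there was -0.84 ± 0.25 (adjusted p = 0.25).

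Smc4 and Stmn1 did not keep their calls in mature against immature kidney. With the block Smc4 was -0.57 (limma, adjusted p = 0.13) and Stmn1 -0.17 (adjusted p = 0.38), and inside batch 1 they were -0.16 (adjusted p = 0.90) and 0.10 (adjusted p = 0.83). In mature against young kidney the block ended the calls of Smc4 (-0.61, adjusted p = 0.15) and Hmmr (-0.47, adjusted p = 0.28). Within the immature group Stmn1 lay between 668.1 and 1114.3 on its 6 batch 1 arrays and between 1418.1 and 1898.4 on its 7 batch 2 arrays, with no overlap. The immature median of Hmmr was 30.05 in batch 1 and 111.8 in batch 2, and that of Smc4 was 119.7 and 272.3. The 7 immature arrays of batch 2 are also those of high 18S signal. Without the 9 arrays of high 18S signal, a setting chosen after seeing the data, mature against immature kidney gave 3 of 12 lower, against 10.5% of all probe sets called: Top2a (-1.25), Cdk1 (-1.29) and Cdc20 (-0.67). Hmmr was then -0.35, Smc4 -0.39 and Stmn1 -0.09, none past the threshold. The part of 18S signal or batch in the values of these 3 genes was not tested further.

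Within single batches, unstaged against young kidney gave calls in batch 2, where 6 unstaged and 6 young arrays lie together, and none in batch 3. There 7 of 12 were lower, against 27.1% of all probe sets called: Smc4 (-1.42), Hmmr (-0.93), Cdk1 (-0.91), Top2a rc_AA899854_at (-0.88), Cdc20 (-0.62), Top2a Z19552cds_at (-0.58) and Stmn1 (-0.39). Inside batch 3, with 8 arrays of each, limma called 0 of 12, against 0.0% of all probe sets. At an unadjusted p under 0.05 there were 5 of 12, against 2.85% of all probe sets. They were Top2a rc_AA899854_at (-0.625), Smc4 (-0.66), Stmn1 (-0.32), Cdk1 (-0.57) and Cdc20 (-0.24). With batch as a block the same 4 probe sets were lower as over all arrays, 4 of 12 against 1.01%. The difference between the 2 batches was not tested. With the block Stmn1 was higher in mature than in unstaged kidney (0.35 ± 0.11, adjusted p = 0.042), 1 of 12 against 5.26%.

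**Figure D3:**
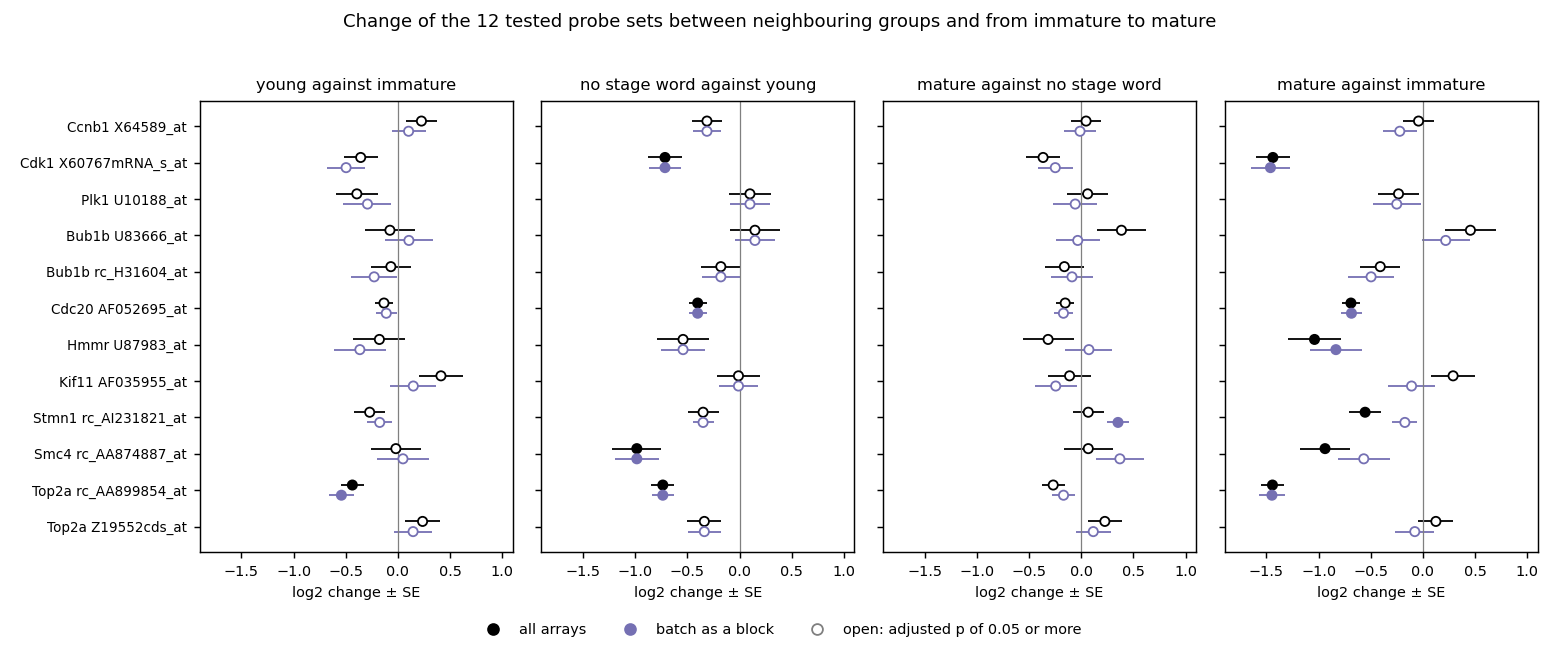
Log2 change ± SE of the 12 tested probe sets between neighbouring groups and from immature to mature kidney, over all arrays (black) and with batch as a block (violet); filled points have an adjusted p under 0.05 in limma. Top2a rc_AA899854_at, Cdk1 and Cdc20 lie at about the same place in both fits, whereas Stmn1 and Smc4 move toward 0 with the block in mature against immature kidney.

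The 12 arrays with X56596_at above 600 and the 43 below it both had lower Cdk1 and Top2a in mature kidney. In the upper set the 3 immature arrays read 209.2, 213.0 and 240.6 for Cdk1 and the 3 mature arrays 45.6, 51.6 and 60.7, all in batch 1. Cdk1 was 3.47-fold lower there (-1.79 ± 0.16, limma, adjusted p = 1.1e-04) and 2.53-fold lower in the lower set (-1.34 ± 0.20, adjusted p = 2.9e-06). Top2a rc_AA899854_at read 273.5, 515.5 and 526.3 on the immature and 132.6, 133.8 and 142.3 on the mature arrays of the upper set, a change of -1.52 ± 0.23 (adjusted p = 0.0026), against -1.42 ± 0.13 in the lower set. In all, mature against immature kidney gave 2 of 12 lower in the upper set, against 5.71% of all probe sets called, and 6 of 12 in the lower set, against 28.3%. The difference of the 2 changes was called for 0 of 12 probe sets in limma, against 1.82% of all probe sets (0 of 12 at an unadjusted p under 0.05), with -0.45 ± 0.39 for Cdk1 and -0.10 ± 0.28 for Top2a. With 3 arrays a group in the upper set these intervals are wide.

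The other comparison that lies within 1 batch in the upper set is unstaged against young kidney, in batch 2. Cdk1 read 165.3, 182.3 and 190.5 on its young and 70.3, 73.8 and 98.2 on its unstaged arrays, 2.03-fold lower (-1.02 ± 0.16, limma, adjusted p = 0.016), the only call among the 12, against 1.21% of all probe sets. Leaving out any of 8 of these 12 arrays in turn moved that count to between 0 and 3: immature replicates 1, 2 and 3, young replicates 1, 2 and 14, and unstaged replicates 4 and 12. Top2a rc_AA899854_at read 311.7, 340.3 and 355.7 against 153.6, 197.1 and 199.3, with no overlap but no call. In the lower set Top2a was called (-0.71 ± 0.13, adjusted p = 0.0061), 1 of 12 against 0.0305%. The remaining comparisons of the upper set set 1 batch against another, so batch and group cannot be told apart there.

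Such calls included Bub1b, whose U83666_at read 133.3, 133.4 and 141.2 on the mature and 92.0, 113.6 and 158.6 on the immature arrays, all of batch 1. On the young arrays it read 55.3, 62.7 and 77.1 and on the unstaged arrays 55.3, 61.5 and 81.6, all of batch 2. It was called higher in mature than in young (0.92, against 7.35% of all probe sets called) and unstaged kidney (0.90, against 2.23%). It was called lower in young (-0.74, against 15.6%) and unstaged kidney (-0.73, against 12.7%) than in immature kidney. In the lower set, where immature arrays of both batches occur, the immature arrays gave 154.2 to 177.2 in batch 1 (3 arrays) and 24.4 to 83.6 in batch 2 (7 arrays).

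The upper and lower sets can be set side by side within 1 batch and 1 description. Among the 6 immature arrays of batch 1, 3 in each set, 0 of 12 probe sets had sets without overlap, against 11.7% of all probe sets. Among the young arrays of batch 2 there were 2 of 12, against 17.1%: Hmmr read 92.5, 100.6 and 107.2 in the upper and 82.2, 86.7 and 88.4 in the lower set, and Top2a Z19552cds_at read 134.5, 152.2 and 177.7 against 178.8, 180.2 and 210.4. Among the unstaged arrays of batch 2 there were 4 of 12, against 19.7%. There Stmn1 (1102.3, 1146.9 and 1171.3 against 850.7, 927.1 and 929.0) and Kif11 (42.5, 56.4 and 70.4 against 17.3, 31.9 and 38.4) were higher in the upper set. Cdk1 (70.3, 73.8 and 98.2 against 99.1, 110.1 and 119.4) and Plk1 (244.0, 264.8 and 373.8 against 429.6, 435.9 and 625.4) were lower. With 3 arrays each no test was made and no difference is read from these counts.

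The members did not vary as 1 block. Among the 45 pairs of the 10 genes' brightest probe sets, Pearson r over the 55 arrays ran from -0.50 to 0.84 with a median of 0.16, and 10 pairs were above 0.5. The closest pair was Cdk1 and Top2a (r = 0.84). After the means of each description and batch were removed, r ran from -0.34 to 0.44 with a median of 0.08, 0 pairs were above 0.5, and Cdk1 and Top2a were at 0.37. The arrays share their groups, batches and scaling, so these are descriptions with no test. Correlation with the mean of all 10 standardised probe sets was highest for Top2a (r = 0.88), Cdk1 (0.77), Hmmr (0.75) and Cdc20 (0.71) and was -0.05 for Bub1b. Each probe set is itself part of that mean, which raises these r by construction.

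**Figure D4:**
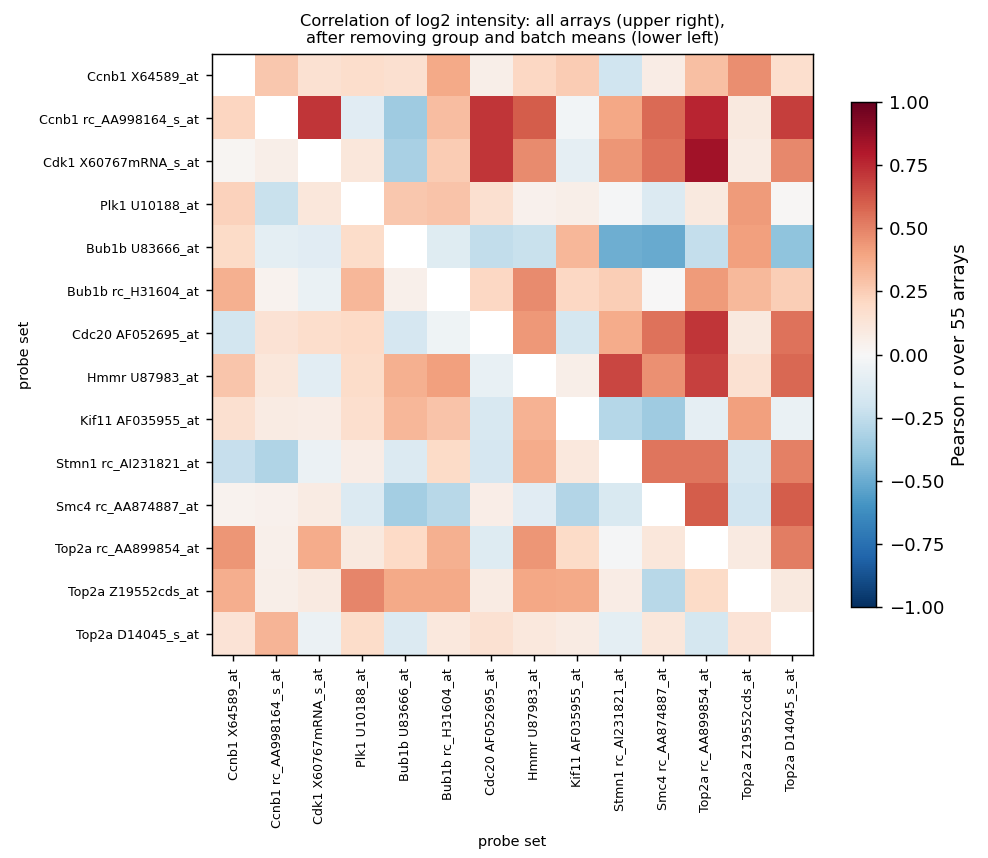
Pearson r between the log2 intensities of the 14 probe sets over 55 arrays, upper right, and after removing the means of each description and batch, lower left. Cdk1, Cdc20, Top2a rc_AA899854_at and the dim Ccnb1 probe set form the strongest block in the upper right, and most of that correlation is absent from the lower left.

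Outside the 10 genes, the named genes most like their mean over the 55 arrays, out of 3825 candidates, were Nxf1 (r = 0.71), Sh2b1 (0.69), E2f5 (0.68), Eln (0.68), Rabep1 (0.67), Zfp386 (0.67), Aopep (0.66) and Cntnap1 (0.66). With the means of description and batch removed, their r was 0.59, 0.50, 0.30, 0.39, 0.57, 0.13, 0.43 and 0.56 in the same order. Nxf1 encodes an RNA export factor, Eln elastin and E2f5 a transcription factor of the cell cycle. All 8 were lower in mature than in immature kidney (-0.34 to -1.30 on the log2 scale). They were chosen for likeness to a mean that was itself lower there, so this direction largely follows from the choice. Between unstaged and young kidney 0 of the 8 were called, against 0.229% of all probe sets (limma, adjusted p = 0.31 to 0.89).

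Other cell cycle genes were counted in 6 lists, written with earlier results of these data known, of which 42 genes were tested. In mature against immature kidney 16 of 42 were lower and 0 higher, against the 14.1% lower over all probe sets. The S phase list held 8 of them among 15 tested, including Prim1 (-1.002), the primase subunit, Pcna (-0.87), the sliding clamp of DNA polymerase, Mcm6 (-0.62) and Mcm5 (-0.59), both of the replicative helicase, and Rpa2 (-0.68). Of 4 tested genes of mitotic entry and exit 2 were lower, Pttg1 (-1.09), which encodes securin, and Wee1 (-0.35), the kinase that restrains Cdk1, while Cdc25b was at -0.14 (adjusted p = 0.39). Of 2 spindle genes Racgap1 (-0.46) was lower, and of 6 chromosome genes H2az1 (-1.17), a histone variant, while Cbx5 (-0.53) and Smc3 (-0.32) did not pass. Of 7 genes of G1 phase 3 were lower, E2f5 (-0.91), Cdk7 (-0.77) and Cdk4 (-0.39). Of 8 inhibitors Gadd45a (-0.70) was lower, and Cdkn1a and Cdkn2b, which encode kinase inhibitors, were both at 0.31 (adjusted p = 0.13). With batch as a block 9 of 42 were lower and 0 higher, against 12.6% of all probe sets called, among them Pttg1, Racgap1, H2az1, Prim1, Rpa2 and E2f5, and inside batch 1 there was 1 of 42, against 0.717%.

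Over all arrays, neither mature nor unstaged against young kidney gave calls among these 42 genes, counts near the background. Between mature and young kidney limma called 0 of 42, against 1.8% of all probe sets, with 10 at an unadjusted p under 0.05, against 19.6%. Between unstaged and young kidney it called 0 of 42, against 0.229%, with 2 at an unadjusted p under 0.05, against 8.01%. Inside batch 2 that comparison gave 12 lower and 1 higher of 42, against 27.1% of all probe sets called, a share near the background. Inside batch 3 it gave 0 of 42, against 0.0%. In young against immature kidney, where 1 of the 12 mitosis probe sets was called, 11 of 42 were lower and 0 higher. Of all probe sets 9.21% were called lower there and 18.7% either way. Among the 11 were Mcm6 (-0.72), Prim1 (-0.71) and Mcm5 (-0.42). The difference between the lists was not tested.

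Markers of kidney cell types moved with the groups as well. Of 16 epithelial markers 13 were measured, with a summed intensity of 48638 to 78569 in immature and 44684 to 99280 in mature kidney. Of the 13, 4 were called higher and 3 lower in mature than in immature kidney, and the medians were higher for 8 and lower for 5. Of all probe sets 24.4% were called either way and 14.1% lower in this comparison, which also serves the marker counts below. Slc22a2, a cation transporter of the proximal tubule, rose from a median of 2355.2 to 4873.2. Slc12a1, the salt transporter of the thick ascending limb, fell from 827.2 to 406.6, and Calb1, a calcium-binding protein of the distal tubule, from 5033.6 to 2503.2. All 11 stromal markers were measured, and their sum was 11671 to 19315 in immature, 6867 to 9834 in young, 4690 to 8248 in unstaged and 4777 to 13426 in mature kidney, with 6 lower and 1 higher of 11 in mature against immature kidney. Medians of the stromal sum were 14839, 8013, 6723 and 6186 in immature, young, unstaged and mature kidney, the same order as Cdk1 and Top2a. The brightest marker in the immature sum was Col1a1 (4055.8 in immature, 701.3 in mature). Pdgfrb (104.0 in immature, 187.8 in mature) and Vim (424.7, 478.2) had higher medians in mature kidney, and the other stromal markers lower ones. Dcn was higher in mature (943.8) than in unstaged kidney (647.7), so single markers did not all follow the order of the sum. Erythroid markers, 6 of 11 measured, summed to 10350 to 20845 in immature and 6339 to 12608 in mature kidney. Medians of the erythroid sum fell from immature through young and unstaged to mature kidney as well (13145, 11151, 9225 and 8141). The haemoglobin genes Hbb (7946.0 in immature, 4812.4 in mature) and Hbb-b1 (3389.4, 2303.2) were by far the brightest in that sum. Alas2 and Hbe1 also had lower medians in mature than in immature kidney. Slc4a1 (503.0 in immature, 611.2 in mature) and Epor (18.8, 23.9) had higher ones. Of 13 markers of embryonic nephron progenitors 6 were measured, summing to 872 to 1862 in immature and 937 to 1975 in mature kidney, and limma called 0 of the 5 tested (0 at an unadjusted p under 0.05). Endothelial markers, 5 of 9, summed to 896 to 1559 and 1192 to 1950, and immune markers, 11 of 16, to 5683 to 9848 and 5581 to 20175. No marker had a group median of 0. The part of cell type shares in the falls of the mitosis genes was not tested.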

How the data were processed

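The deposited values are intensities of 8799 probe sets on 55 arrays. How the authors summarised and scaled them is not given in the sources used here. Their 2% trimmed mean varied only from 500.2 to 500.7, so the deposited scaling was kept. The offset 15.82, a share of 0.1 of the overall median, was added before log2, 59 control probe sets were left out, and probe sets under the 25th percentile of mean log2 were removed, leaving 6555. The 4 descriptions were compared over all arrays with limma 3.58.1 (R 4.3.3), with Benjamini-Hochberg adjustment and a threshold of 0.05. The scripts were tested on simulated data. Batches came from Ward clustering of 42 control probe sets into 3 groups, a number that was set. Gene symbols came from the platform annotation, updated through RefSeq (GRCr8), whose promoter windows were searched for motifs. All 14 probe sets are reported, each gene led by its brightest. The genes, lists, batches and the division at 600 were chosen with earlier results of these data known. Named list genes are up to 3 per list, ranked by p between mature and immature kidney, plus Pcna, Mcm5 and Mcm6, named after their values were seen. Alternatives covered offset, filter, scaling, array weights, prior, blocks, single batches and left-out arrays.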

Additional observations from a re-analysis of the deposited data

Results flagged for a closer look

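Within each batch and description of 4 to 10 arrays, the 6 probe sets called in any comparison were searched for an array far from the rest of its group, over 48 groups in all. Chance marks about 1 group in 20. Both arrays that stood apart were high in Hmmr. Immature replicate 3 of batch 1 read 174.0, against 18.0 to 37.7 on the other 5 immature arrays of that batch. Mature replicate 9 of batch 3 read 137.1, against 18.9 to 53.1 on the other 9, and this is 1 of the 2 arrays of high GAPDH ratio. Without that array and mature replicate 1, the change of Hmmr was -1.25 in mature against immature and -1.07 in mature against young kidney.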

How the results depend on the processing

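No paired analysis was possible because the replicate numbers were given in accession order and pair no samples. Counts of the 12 member probe sets called are given throughout, and the cause of each move was not tested unless stated. They stand without the share of all probe sets called, so they show only moves between settings. Array weights in particular called 44.3% to 58.4% of all probe sets in the comparisons with immature kidney over all arrays. A filter at the 50th percentile left 5 members to test and so gave fewer calls: 3 in mature against immature, 2 in mature against young, 3 in unstaged against immature, 2 in unstaged against young and 3 among the 4 groups. In the set above 600 it gave 1, 0, 1, 2 and 0 (mature against immature, young against immature, mature against young, unstaged against immature, mature against unstaged), and in the set below 3 and 3 (mature and unstaged against immature). Array weights gave 5 (1 of them higher) in young against immature and 7 in unstaged against young; above 600 they gave 0, 6, 2 and 4 (young against immature, mature against young, unstaged against immature, unstaged against young), and below 600 they gave 8, 3 and 1 (young against immature, unstaged against young, mature against unstaged). Batch as a block gave 3 in mature against young and 1 in mature against unstaged, both also with the 600 division as a second block, and 1 in young against immature below 600. Single batches, with fewer arrays, gave 2 in mature against immature (batch 1), 3 (1 of them higher) in young against immature and 7 in unstaged against young (batch 2), and 2 in mature against young and 0 in unstaged against young (batch 3). There Stmn1 turned to 0.102 in mature against immature kidney (batch 1). Quantile normalization gave 2 in unstaged against young, 2 and 0 above 600 (unstaged against immature, mature against unstaged) and 1 below (young against immature). An offset of 0.5 of the median gave 2 in young against immature. Above 600, no filter gave 2 in unstaged against young and 0 in mature against unstaged, 75th percentile scaling 0 in the latter, and a trended robust prior 0 in the latter and in young against immature. Without the arrays of high 18S signal, a setting chosen after seeing the data, the counts were 3 in mature against immature and, below 600, 2, 0 and 2 (mature, young and unstaged against immature). Leaving out each array in turn gave 6 to 7 in mature against immature, 1 to 1 in young against immature, 3 to 5 in mature against young, 5 to 6 in unstaged against immature, 2 to 4 in unstaged against young, 0 to 0 in mature against unstaged and 6 to 6 among the 4 groups. In this order of comparisons it gave 2 to 2, 0 to 3, 1 to 5, 2 to 5, 0 to 3 and 0 to 2 above 600, and 6 to 7, 1 to 2, 3 to 3, 6 to 6, 1 to 1 and 0 to 0 below. The 3 calls in mature against young came without young replicate 1, 2, 3, 4, 13 or 14 or mature replicate 1, and the 2 calls in unstaged against young without young replicate 3 or 4 or unstaged replicate 2. Of single probe sets, Top2a rc_AA899854_at lost its calls in the settings that tested it only inside batch 3 (unstaged against young) and without the high 18S arrays (young against immature), Cdc20 only inside batches 1 and 3, and Cdk1 only inside batch 3, with quantile normalization and, in unstaged against young, without 1 of 3 single arrays; Stmn1, Smc4 and Hmmr each lost calls in several settings. The signal over background of single probe sets was not analysed here, and probe sets near the offset, as Hmmr, Kif11 and the dim Ccnb1 set, have understated changes.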
